A study of Mus musculus with 50 samples.

Results

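The 7 genes described here are those of the MHC class II pathway of the mouse that make or move the peptide-presenting molecule, H2-Aa, H2-Ab1, H2-Eb1, H2-DMa, H2-DMb1 and Cd74, together with Ciita, the gene of the class II transactivator. They were found by their symbols in the count tables, which list 53700 genes, and all 7 were present. Of these, 6 were among the 16696 genes that reached at least 1 normalised CPM (the count scaled to the size of its library) in more than 2 of the 50 mice, and Ciita was not. RNA was sequenced from sorted hippocampal microglia of male C57BL/6J mice. ELS mice had been raised with limited bedding and nesting material in the first postnatal days (early-life stress), and CTR mice under standard conditions. At P9 there were 12 P9-CTR and 13 P9-ELS mice, which received no treatment. At P200, other mice were injected with PBS (7 P200-CTR-PBS, 6 P200-ELS-PBS) or with 1 mg/kg of the bacterial cell wall component lipopolysaccharide, LPS (7 P200-CTR-LPS, 5 P200-ELS-LPS) hours before sacrifice. Mice are named by the number before the point in their label, taken here as the nest, and the number after it. The sort took CD11b+ cells with intermediate CD45, and myelin was removed from P200 but not from P9 tissue, so that age and this step cannot be told apart.

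MHC class II molecules present peptides from the endosomal pathway to CD4+ T cells. H2-Aa and H2-Ab1 encode the alpha and beta chain of the I-A molecule, and H2-Eb1 the beta chain of I-E. Cd74 encodes the invariant chain, which fills the peptide groove during assembly, and H2-DMa and H2-DMb1 encode the chains of the H2-M complex, which exchanges the last fragment of the invariant chain for a peptide. Ciita encodes a coactivator that binds no DNA itself and is recruited by RFX, CREB and NF-Y to the conserved X and Y boxes of class II promoters, and interferon gamma is its best known inducer. Microglia carry little class II in the healthy brain and are known to increase it in disease.

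The 5 class II genes on chromosome 17 lie in one region (GRCm39, GENCODE annotation). H2-DMa is at chr17:34338515-34358958, H2-DMb1 at chr17:34372046-34379204 and H2-Ab1 at chr17:34476663-34488393, all on the plus strand. H2-Aa is at chr17:34493404-34506798 on the minus strand, and H2-Eb1 at chr17:34504236-34535648 on the plus strand. Ciita is at chr16:10297923-10347694 on the plus strand. H2-Aa and H2-Eb1 share 118 exon bases on opposite strands, and H2-DMa shares 510 with Brd2. Also on opposite strands, Ciita shares 633 exon bases with Dexi, and H2-Eb1 shares 130 with Gm20513. The strand setting of the counting is not given in the sources used here, so reads from these stretches cannot be assigned to 1 gene with certainty.

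Because Ciita acts through the X and Y boxes, the 150 bases before the start of the canonical transcript were searched on both strands for the Y box core, TGATTGG, and for a core of the X box, AACNGATG. The Y box core was present in the windows of H2-Aa, H2-Ab1, H2-Eb1 and H2-DMa, with its first base 50, 29, 33 and 41 bases before the start. The X box letters were present in that of H2-Eb1, with 20 bases between both. Of 21770 windows of the same length in the annotation, 6.89% held the Y box core, 0.978% the X box letters and 0.0827% both. These letters were not in the windows of H2-DMb1 and Ciita. Only exact matches within the 150 bases were searched, so boxes with other letters or at other positions would be missed. The absence of a match therefore does not show that a gene lacks a box. The window of Cd74 was not analysed here. Of the other class II genes, H2-DMb2 and H2-Eb2 held both and H2-Ob the Y box core. The 4 windows of the genes described here with a match are shown on the strand of the gene, with the matches in capitals.
H2-Aa, chr17:34506798-34506947, minus strand: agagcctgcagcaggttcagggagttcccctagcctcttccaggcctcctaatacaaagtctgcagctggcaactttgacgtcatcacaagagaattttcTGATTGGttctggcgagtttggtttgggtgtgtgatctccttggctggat
H2-Ab1, chr17:34482033-34482182, plus strand: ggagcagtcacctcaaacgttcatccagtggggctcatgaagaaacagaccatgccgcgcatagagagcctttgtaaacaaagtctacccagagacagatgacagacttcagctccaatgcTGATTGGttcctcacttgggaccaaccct
H2-Eb1, chr17:34524663-34524812, plus strand: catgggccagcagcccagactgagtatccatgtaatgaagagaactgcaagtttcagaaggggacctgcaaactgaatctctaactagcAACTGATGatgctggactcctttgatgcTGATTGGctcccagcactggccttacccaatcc
H2-DMa, chr17:34354410-34354559, plus strand: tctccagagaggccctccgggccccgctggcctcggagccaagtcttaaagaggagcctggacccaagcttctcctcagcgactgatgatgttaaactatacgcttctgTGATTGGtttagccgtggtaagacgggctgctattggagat

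Total counts per mouse were between 5152838 and 42231258. In 3 mice fewer genes were detected than in the others, with 15731 and 12482 in P9-ELS mice 2 and 3 of nest 19 and 12854 in P200-CTR-PBS mouse 1 of nest 1. All 10 microglia markers were detected in every group, and their summed level was between 37960 and 90550 CPM per mouse. Summed markers of T cells, monocytes and neutrophils were at most 3.57, 10.97 and 11.35 CPM in any mouse. Those of dendritic cells, B cells and border-associated macrophages were at most 65.5, 1112 and 1205 CPM. In these bulk samples, fewer cells of a type and less RNA per cell cannot be told apart.

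The 7 genes differed widely in level, and the H2-M genes led in PBS mice at P200. Per kb of merged exon, the mean level in P200-CTR-PBS mice was 155 CPM for H2-DMb1, 69.0 for H2-DMa, 16.6 for Cd74, 8.63 for H2-Ab1, 1.36 for H2-Eb1, 1.32 for H2-Aa and 0.00928 for Ciita. Per kb of the canonical transcript, H2-DMa (260) came before H2-DMb1 (186), and H2-Aa (5.04) before H2-Eb1 (2.09), while Cd74 and H2-Ab1 kept their places between these pairs. The order within each pair in P200-CTR-PBS mice therefore depends on the length used. In P200-CTR-LPS mice, Cd74 (73.9) came before H2-DMa (68.65) per kb of merged exon. Per kb of the canonical transcript it came after H2-DMa (130 against 258). At P9 the order per kb of merged exon in CTR mice was H2-DMb1 (38.1), Cd74 (33.7), H2-DMa (21.3), H2-Ab1 (5.58), H2-Eb1 (0.131), H2-Aa (0.0241) and Ciita (0.00830). Per kb of the canonical transcript it began with H2-DMa (80.3), Cd74 (59.1) and H2-DMb1 (45.65).

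**Figure D1:**
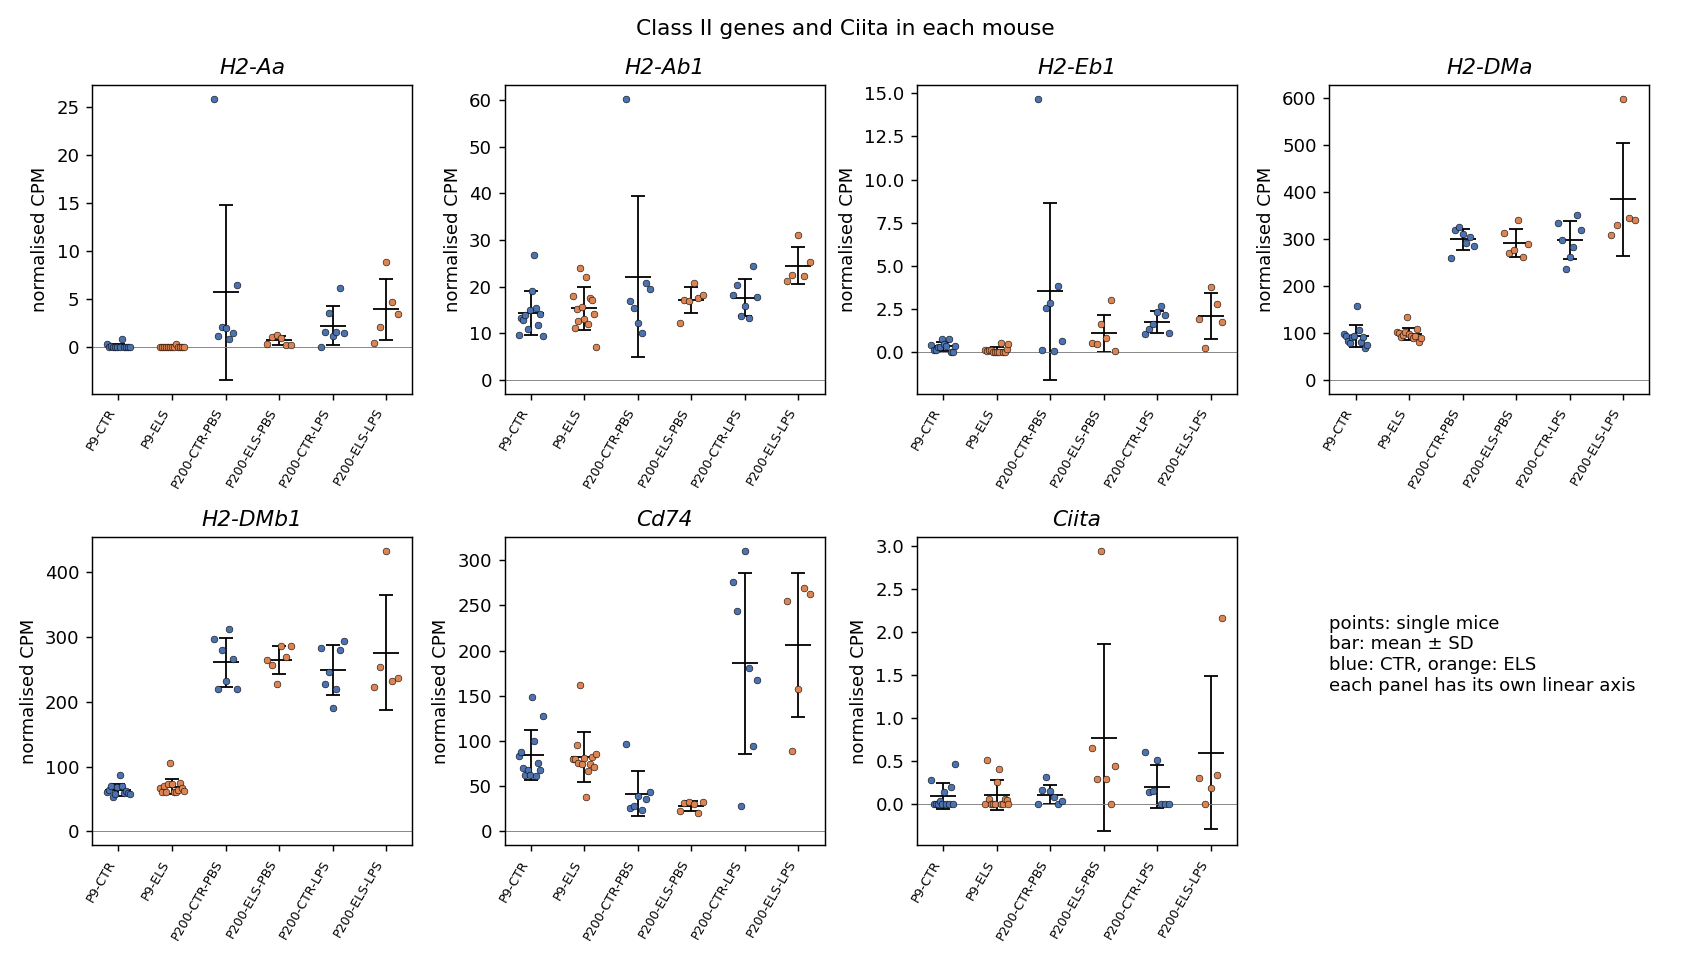
Normalised CPM of the 7 genes in each of the 50 mice, by group, with the mean and SD as bars and a linear axis for each gene. H2-DMa and H2-DMb1 separate P9 from P200, Cd74 separates most LPS mice from PBS mice, and mouse 1 of nest 1 is the highest P200-CTR-PBS point for H2-Aa, H2-Ab1, H2-Eb1 and Cd74.

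The first question was how class II expression changes between P9 and P200. H2-DMa, H2-DMb1, H2-Aa and H2-Eb1 were higher in P200-PBS than in P9 microglia in both conditions, and Cd74 was lower. In CTR mice, all 6 tested genes passed the test (edgeR quasi-likelihood test, adjusted p under 0.05), as did 44.1% of all tested genes, and 5 of the 6 were higher. In ELS mice 5 of 6 passed, against 42.2% of all genes, and 4 of them were higher. The median log2 fold change of the 6 genes was 1.86 in CTR and 1.76 in ELS mice, and that of all genes was -0.09 and -0.014.

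H2-DMa, the alpha chain of H2-M, had a median of 91.7 CPM in P9-CTR mice (lowest 66.9, highest 156) and 303 CPM in P200-CTR-PBS mice (259 to 325). In ELS mice the medians were 94.9 CPM (80.7 to 133) at P9 and 284 CPM (262 to 340) at P200. The ages did not overlap in either condition. The log2 fold change was 1.69 ± 0.117 (SE, adjusted p = 3.69e-17) in CTR and 1.58 ± 0.118 (adjusted p = 8.45e-16) in ELS mice.

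H2-DMb1, its beta chain, rose likewise and also without overlap. Its median was 60.8 CPM (53.26 to 87.1) in P9-CTR and 266 CPM (219 to 311) in P200-CTR-PBS mice. In ELS mice it was 66.8 CPM (60.4 to 105) and 267 CPM (227 to 286). The log2 fold change was 2.02 ± 0.113 (adjusted p = 1.38e-20) in CTR and 1.94 ± 0.114 (adjusted p = 1.32e-19) in ELS mice. H2-DMb2, a near-identical paralog, held on average 6.08% ± 0.983 (SD, n = 12) of the summed counts of both genes in P9-CTR and 4.25% ± 1.39 (SD, n = 7) in P200-CTR-PBS mice, and how the counting split reads between them is uncertain.

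H2-Aa was at 0 counts in 9 of 12 P9-CTR and 12 of 13 P9-ELS mice, and its highest P9 value was 0.869 CPM. At P200 all PBS mice had counts. The 7 P200-CTR-PBS mice had 25.8, 6.46, 2.06, 1.98, 1.47, 1.15 and 0.855 CPM. P200-ELS-PBS mice had a median of 0.666 CPM (0.192 to 1.29). The value of 25.8 CPM, from mouse 1 of nest 1, stood far above the other CTR mice. The log2 fold change was 5.75 ± 0.925 (adjusted p = 1.21e-06) in CTR and 4.14 ± 0.955 (adjusted p = 0.000404) in ELS mice, both set against P9 groups near 0. Without mouse 3 of nest 53, which alone had counts among P9-ELS mice, the fitted ELS value was 6.88, which depends on the prior count because all remaining P9-ELS mice were at 0. Without mouse 1 of nest 1 the CTR value was 4.47 (adjusted p = 6.1e-05).

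H2-Eb1 stayed low at both ages. It was at 0 counts in 2 of 12 P9-CTR and 6 of 13 P9-ELS mice, with highest values of 0.786 and 0.561 CPM. P200-CTR-PBS mice had a median of 2.57 CPM (0.0713 to 14.7) and P200-ELS-PBS mice of 0.690 CPM (0.0543 to 3.02), so that the ages overlapped. The log2 fold change was 3.37 ± 0.752 (adjusted p = 0.00025) in CTR and 2.88 ± 0.768 (adjusted p = 0.00197) in ELS mice. Without mouse 1 of nest 1 it was 2.30 in CTR mice (adjusted p = 0.0102).

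H2-Ab1 was expressed at P9 already, with a median of 13.5 CPM (9.38 to 26.9) in P9-CTR and 15.23 CPM (7.06 to 24.1) in P9-ELS mice. At P200 it was 17.0 CPM (9.98 to 60.3) and 17.33 CPM (12.2 to 20.9). Its call in CTR mice (log2 fold change 0.629 ± 0.230, adjusted p = 0.0229) rested on mouse 1 of nest 1, without which the value was 0.143 (adjusted p = 0.592). In ELS mice it was 0.161 ± 0.241 (adjusted p = 0.627).

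Cd74 moved in the opposite direction. Its median was 73.1 CPM (61.5 to 148) in P9-CTR and 36.3 CPM (24.2 to 96.4) in P200-CTR-PBS mice, and 6 of the 7 adults were below every P9-CTR mouse. In ELS mice the ages did not overlap, with 79.6 CPM (37.6 to 162) at P9 and 31.0 CPM (20.07 to 32.2) at P200. Cd74 fell by 1.01 ± 0.285 on the log2 scale in CTR (adjusted p = 0.00315) and by 1.55 ± 0.309 in ELS mice (adjusted p = 5.46e-05). Cd74 held 32.6% ± 5.41 (SD, n = 12) of the summed counts of the 7 genes in P9-CTR and 6.44% ± 3.11 (SD, n = 7) in P200-CTR-PBS mice. This share does not depend on the scaling between libraries. It also falls through the rise of H2-DMa and H2-DMb1, which are in the sum, and so does not measure the fall of Cd74 alone.

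**Figure D2:**
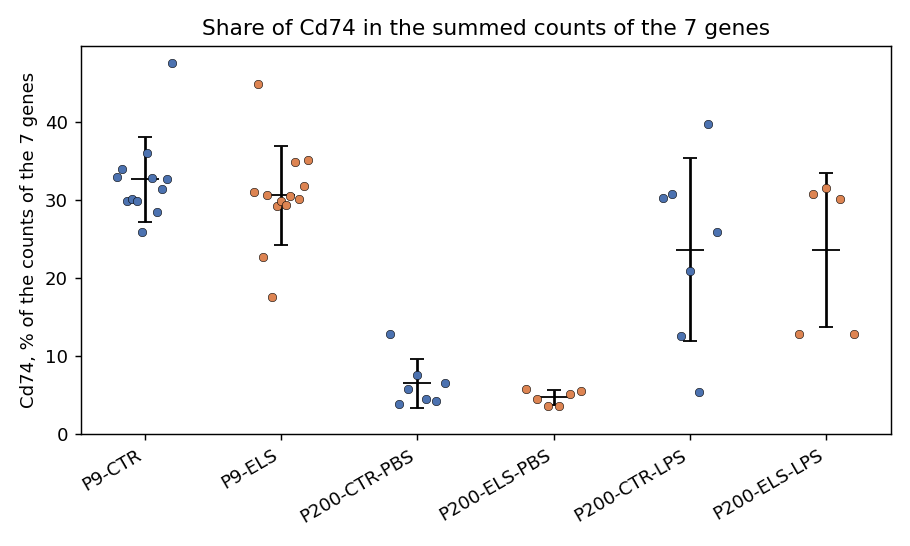
Cd74 counts as a percentage of the summed counts of the 7 genes in each mouse, by group, with mean and SD. The share was 30.6% to 32.6% on average at P9, 4.66% and 6.44% in P200-PBS mice and 23.6% in both P200-LPS groups. The sum includes H2-DMa and H2-DMb1, which rose with age.

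Markers of border-associated macrophages moved with age. Their summed level was between 640 and 1205 CPM in P9 mice and between 136 and 284 CPM in P200-PBS mice. Most of it at P9 was Mrc1, whose mean over the 12 P9-CTR mice was 711 ± 128 CPM (SD), against 5.76 ± 2.1 CPM (SD) over the 7 P200-CTR-PBS mice. Lyve1 and Cd163 were at most 11.11 and 7.397 CPM in any P9 mouse. In P200-PBS mice most of the sum was Stab1, with a mean of 170 ± 15.7 CPM (SD) over the 7 P200-CTR-PBS mice. Its mean over the 12 P9-CTR mice was 188 ± 28.3 CPM (SD). The part of these cells in the age difference of Cd74 was not tested.

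The other class II genes and the processing proteases were measured alongside. Of 5 further class II genes, 3 were tested, and all 3 passed in CTR and 2 in ELS mice, each higher at P200, where 44.1% and 42.2% of all genes passed in either direction. H2-Ob, the beta chain of the H2-M inhibitor H2-O, rose by 1.76 ± 0.142 in CTR (adjusted p = 9.26e-15) and 1.65 ± 0.145 in ELS mice (adjusted p = 1.49e-13) on the log2 scale. H2-Oa, its alpha chain, rose by 0.640 ± 0.139 in CTR mice (adjusted p = 0.000181) and had a log2 fold change of 0.288 (adjusted p = 0.107) in ELS mice. H2-Ea, the alpha chain of I-E, had 0 counts in all mice. Of 6 processing genes, all passed with age in both conditions, 2 of them higher and 4 lower. Ctss, a protease that degrades the invariant chain, rose by 1.14 ± 0.140 in CTR mice (adjusted p = 2.93e-09), and Ifi30, a lysosomal thiol reductase, fell by 1.33 ± 0.161 (adjusted p = 1.66e-09). Marchf1, a ubiquitin ligase that removes class II from the surface, rose by 1.14 ± 0.125 (adjusted p = 1.25e-10), and Marchf8 did not pass the test (-0.683, adjusted p = 0.0961).

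The next question was which genes respond to LPS at P200. Cd74 alone passed the test in either condition, 1 of 6 genes and higher under LPS, against 8.73% of all genes higher in CTR and 7.4% in ELS mice. The median log2 fold change of the 6 genes was -0.199 in CTR (0.017 without mouse 1 of nest 1) and 0.725 in ELS mice, and that of all genes was 0.005 and -0.035. These comparisons share the PBS groups with the age comparisons.

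Cd74 had 311, 276, 244, 181, 167, 94.8 and 28.4 CPM in the 7 P200-CTR-LPS mice, and 96.4, 43.7, 38.6, 36.3, 27.6, 26.1 and 24.2 CPM in the 7 P200-CTR-PBS mice. Of the LPS mice, 5 were above all PBS mice, and mouse 3 of nest 5, at 28.4 CPM, was within the PBS range. The 5 P200-ELS-LPS mice had 269, 262, 255, 158 and 88.9 CPM, all above the highest P200-ELS-PBS mouse at 32.2 CPM. The log2 fold change was 2.15 ± 0.321 (adjusted p = 8.57e-07) in CTR and 2.88 ± 0.365 (adjusted p = 2.4e-08) in ELS mice. The difference between both LPS effects was 0.728 ± 0.465 (adjusted p = 0.910), and 0.375 without mouse 1 of nest 1. Within nests, Cd74 was higher under LPS in 5 of 5 CTR nests (log2 difference 0.0801 to 2.62) and 5 of 5 ELS nests (1.49 to 3.53).

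**Figure D3:**
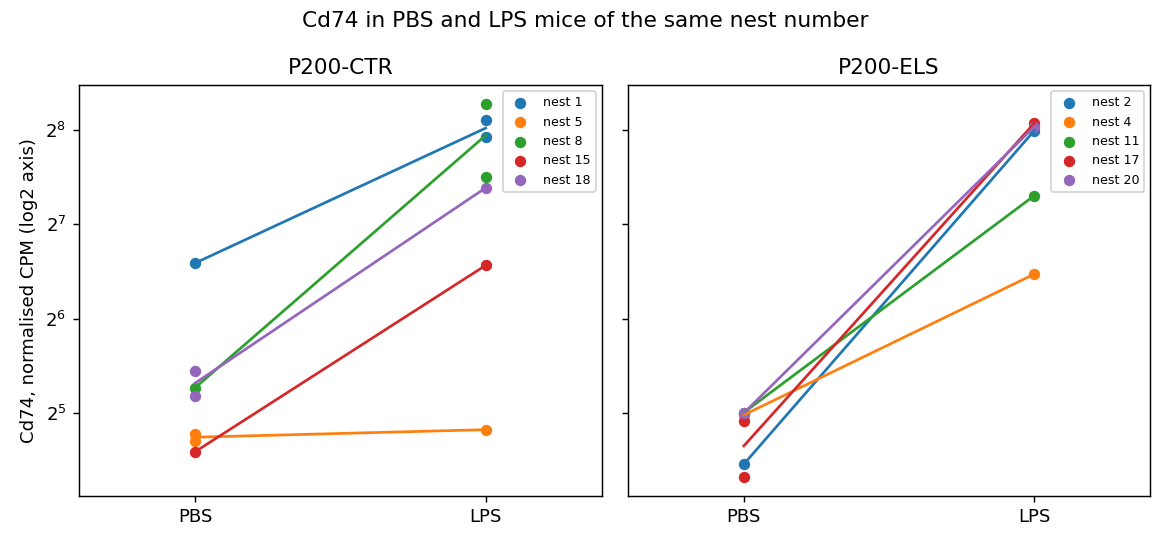
Cd74 in normalised CPM on a log2 axis for P200 mice given PBS or LPS, with mice of 1 nest number in 1 colour and a line between the nest's means. All 10 lines go up, and that of CTR nest 5, which holds the LPS mouse at 28.4 CPM, is nearly flat.

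This mouse of nest 5 had the lowest summed dendritic cell markers of its group at 14.9 CPM, where the group's median was 28.8 CPM. Over the 50 mice, the deviations of Cd74 from its group means correlated with those of the summed dendritic cell markers (Pearson r = 0.565), all from the same libraries. With the other marker lists, r was between -0.168 (B cells) and -0.009 (monocytes), with -0.078 for border-associated macrophages. Most of the dendritic cell sum was Batf3, Zbtb46 and Itgax, with means of 12.0, 9.82 and 5.17 CPM of 29.0 CPM in P200-CTR-LPS mice. The defining markers Clec9a, Xcr1, Cd209a and Clec10a were at most 1.24 CPM in any LPS mouse. Of the 8 dendritic cell markers 6 were tested, and 1, Zbtb46, passed in each condition. Of all genes, 14.9% passed in CTR and 12.3% in ELS mice, in either direction. Zbtb46 rose under LPS by 1.43 ± 0.455 in CTR (adjusted p = 0.0237) and 2.12 ± 0.513 in ELS mice (adjusted p = 0.00268). The other 5 were between -0.522 (Batf3, adjusted p = 0.0683) and 1.25 in CTR and between -1.09 and 0.18 in ELS mice, and the median of the 6 was 0.882 and 0.01. The part of such cells in the Cd74 difference was not tested.

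The other 5 genes did not pass the test under LPS. H2-DMa had a log2 fold change of -0.008 ± 0.134 (adjusted p = 0.990) in CTR and 0.398 ± 0.151 (adjusted p = 0.0767) in ELS mice, and mouse 2 of nest 11, at 599 CPM against 309 to 344 CPM in the other P200-ELS-LPS mice, set much of the latter (0.181 without it, adjusted p = 0.509). H2-DMa passed in ELS mice in 3 other fits, and H2-Aa in 1, given with the alternatives. H2-DMb1 was at -0.067 ± 0.130 and 0.057 ± 0.147 (-0.166 without this mouse). Its highest P200-ELS-LPS value, 433 CPM, was from the same mouse, and the other 4 were between 223 and 253 CPM. H2-Ab1 was between 21.2 and 31.0 CPM in P200-ELS-LPS and between 12.2 and 20.9 CPM in P200-ELS-PBS mice, without overlap, but the fitted log2 fold change of 0.515 ± 0.297 did not pass the test (adjusted p = 0.289). H2-Aa was at -1.35 ± 0.932 (adjusted p = 0.386; -0.072 without mouse 1 of nest 1) in CTR and 2.505 ± 1.08 (adjusted p = 0.128) in ELS mice, and H2-Eb1 at -0.999 ± 0.838 (0.068 without mouse 1 of nest 1) and 0.934 ± 0.946. The 5 P200-ELS-LPS mice had 8.84, 4.67, 3.47, 2.11 and 0.443 CPM of H2-Aa, of which 4 were above every P200-ELS-PBS mouse. P200-CTR-LPS mice had a median of 1.60 CPM (0 to 6.12), within the range of the PBS mice but for 1 mouse at 0.

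**Figure D4:**
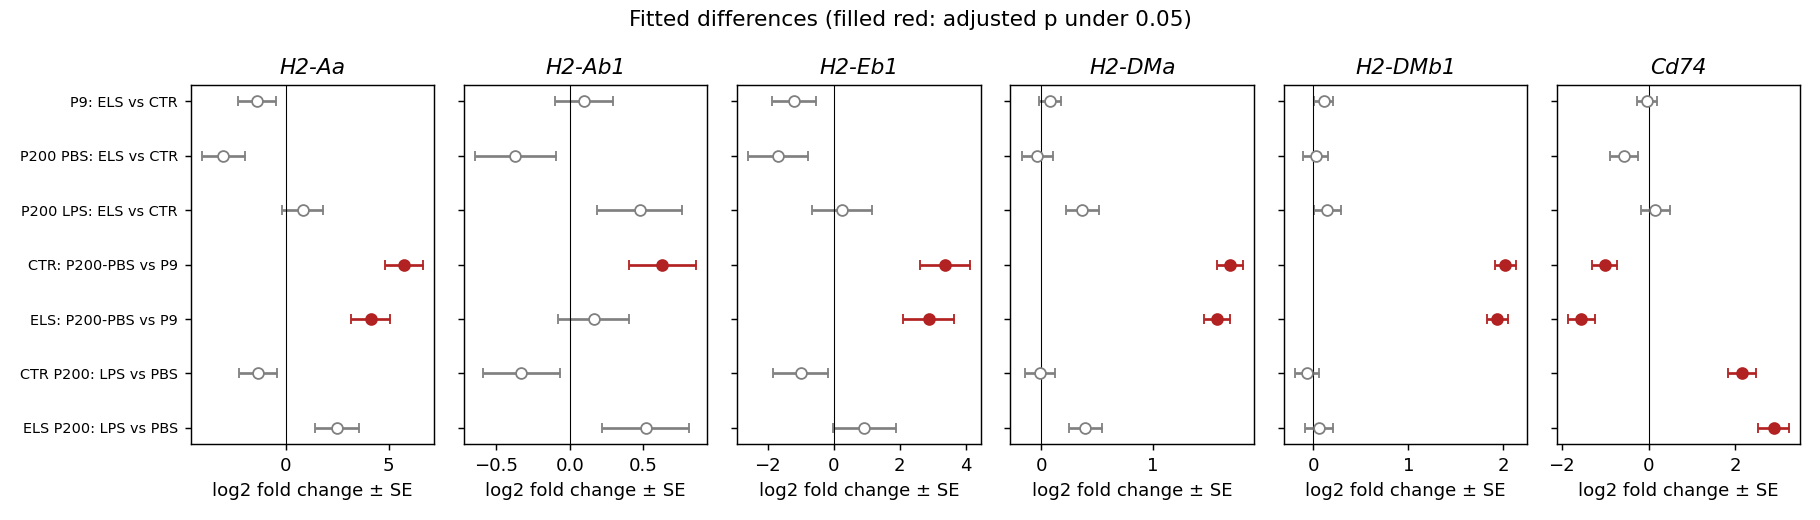
Log2 fold change with SE of the 6 tested genes in 7 comparisons, filled red where the adjusted p was under 0.05, each gene with its own axis. ELS against CTR has no filled point, the age comparisons have 11 of 12 filled, and the LPS comparisons have filled points for Cd74.

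Upstream of Ciita, genes of the interferon gamma pathway responded to LPS. Ifng had 0 counts in all mice. Of 8 tested genes of this list, 5 rose and 2 fell in CTR mice, and 2 rose and 1 fell in ELS mice. Of all genes, 8.73% rose and 6.2% fell in CTR, and 7.4% and 4.94% in ELS mice. Irf1, a transcription factor that acts on the Ciita promoter, rose by 2.51 ± 0.238 in CTR (adjusted p = 4.63e-12) and 2.82 ± 0.266 in ELS mice (adjusted p = 5.38e-12). Usf1, which also binds a Ciita promoter, fell by 0.894 ± 0.178 (adjusted p = 0.000169) and 0.968 ± 0.204 (adjusted p = 0.000478). Of the 7 factors that bind the X and Y boxes, 2 rose in both conditions, against the same 8.73% and 7.4% of all genes. These were the NF-Y subunits Nfya (1.21 ± 0.208 in CTR, adjusted p = 1.42e-05) and Nfyb (1.80 ± 0.228, adjusted p = 1.75e-08).

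The class I counterpart was measured for comparison. Of 7 genes, 3 rose with LPS in CTR and 5 in ELS mice, and none fell, against 8.73% and 7.4% of all genes that rose. Nlrc5, the class I transactivator related to Ciita, rose by 3.01 ± 0.545 in CTR (adjusted p = 3.56e-05) and 1.93 ± 0.579 in ELS mice (adjusted p = 0.0188). H2-K1, a class I heavy chain, rose by 0.654 ± 0.171 (adjusted p = 0.00492) and 1.23 ± 0.193 (adjusted p = 3.38e-06).

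ELS was compared with CTR at P9, in PBS mice and in LPS mice. No class II gene passed the test in any of the 3 comparisons, against 0.0%, 0.168% and 0.0% of all genes (edgeR). At an unadjusted p under 0.05, 914, 1622 and 798 of all genes passed, and DESeq2 called 0, 177 and 2 genes, none of the 6 among them. Of the 6 genes, H2-Aa in PBS mice and H2-DMa in LPS mice had an unadjusted p under 0.05, and H2-DMa was then at 0.37 ± 0.146 (adjusted p = 0.862), and at 0.154 (unadjusted p = 0.276, edgeR) without mouse 2 of nest 11. In PBS mice, H2-Aa had the lowest unadjusted p (0.0058), with a log2 fold change of -3.05 ± 1.06 (adjusted p = 0.230), and 3 of the 6 ELS mice were below all CTR mice. Without mouse 1 of nest 1 the value was -1.76 (adjusted p = 0.840). H2-Eb1 was at -1.69 ± 0.900 (adjusted p = 0.568) and Cd74 at -0.576 ± 0.325 (adjusted p = 0.603), and without the same mouse at -0.625 and -0.223. At P9, H2-Aa was at -1.43 ± 0.924 (-4.15 without P9-ELS mouse 3 of nest 53, -0.269 without P9-CTR mouse 3 of nest 51) and H2-Eb1 at -1.20 ± 0.680, both near 0 counts in most mice, and the other 4 genes were between -0.045 ± 0.231 (Cd74) and 0.108 ± 0.098 (H2-DMb1). In LPS mice, H2-Ab1 was at 0.473 ± 0.286 (adjusted p = 1) and Cd74 at 0.152 ± 0.336 (-0.038 without mouse 3 of nest 5), and both conditions overlapped for Cd74. In PBS mice, H2-DMa and H2-DMb1 were at -0.036 ± 0.140 and 0.023 ± 0.135.

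Neither did the effects of LPS or age on these genes differ by condition past the threshold, where 0.0% and 0.0299% of all genes did (edgeR). At an unadjusted p under 0.05 these were 980 and 1712 genes, and DESeq2 called 11 and 20, none of the 6 among them. For LPS, H2-Aa had the largest difference, 3.86 ± 1.43 (ELS minus CTR, adjusted p = 0.590), and it was 2.58 without mouse 1 of nest 1. H2-Ab1 was at 0.845 ± 0.397 (adjusted p = 0.806), and at 0.358 without this mouse. For age, H2-Aa was at -1.62 ± 1.54 (-0.314 without mouse 1 of nest 1 and 1.12 without P9-ELS mouse 3 of nest 53), H2-Eb1 at -0.488 ± 1.18 (0.585 without mouse 1 of nest 1) and H2-Ab1 at -0.469 ± 0.338 (0.018 without it), so that these directions rested on single mice. The other 3 were between -0.532 ± 0.397 (Cd74, -0.178 without mouse 1 of nest 1) and -0.085 ± 0.167 (H2-DMb1).

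Ciita was near the limit of detection. It had between 0 and 57 counts per mouse, with 0 counts in 7 of 12 P9-CTR, 7 of 13 P9-ELS, 2 of 7 P200-CTR-PBS, 1 of 6 P200-ELS-PBS, 3 of 7 P200-CTR-LPS and 1 of 5 P200-ELS-LPS mice. P200-ELS-PBS mice had 2.95, 0.649, 0.434, 0.285, 0.281 and 0 CPM, and P200-CTR-PBS mice 0.311, 0.159, 0.142, 0.0713, 0.0341, 0 and 0 CPM. P200-ELS-LPS mice had 2.17, 0.329, 0.295, 0.185 and 0 CPM, and P200-CTR-LPS mice were between 0 and 0.600 CPM. The highest value in P9 mice was 0.509 CPM. In 2 ELS mice, mouse 1 of nest 11 (PBS) and mouse 1 of nest 20 (LPS), Ciita thus exceeded 2 CPM, and it was under 1 CPM in all others.

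In PBS mice at P200, mean Ciita was 0.664 CPM higher after ELS (two-sided exact permutation test, p = 0.0315, adjusted over 7 comparisons p = 0.1101). Between P200-ELS-PBS and P9-ELS mice it was 0.664 CPM (exact permutation p = 0.0154, adjusted p = 0.108). Without mouse 1 of nest 11 these were 0.227 CPM (p = 0.0682, exact permutation test) and 0.228 CPM (p = 0.0488, exact permutation test). None of the 7 comparisons passed after adjustment. In edgeR fits with 3 looser filters that admit Ciita, the age difference in ELS mice passed. Its log2 fold changes were 2.74 to 2.78, with adjusted p between 0.0285 and 0.0496. In the same edgeR fits, the age effect in ELS minus CTR did not pass (2.54 to 2.59, adjusted p between 0.566 and 0.695). Neither did ELS against CTR in P200-PBS mice (adjusted p between 0.397 and 0.451). All these fits include mouse 1 of nest 11. For LPS the differences were 0.0946 CPM in CTR (exact permutation p = 0.387) and -0.171 CPM in ELS mice (exact permutation p = 0.662). Without mouse 1 of nest 11 the ELS difference was 0.266 CPM (exact permutation p = 0.802), so its direction rested on this mouse. Cd74 rose under LPS in both conditions.

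After subtraction of the group means, H2-DMa and H2-DMb1 had a Pearson r of 0.714 over the 50 mice. For H2-Aa it was 0.397 with H2-Ab1 and 0.388 with H2-Eb1, and 0.240 and 0.283 without mouse 1 of nest 1. H2-Ab1 had r of 0.233 with H2-DMa and 0.336 with H2-DMb1, and 0.367 and 0.317 without that mouse, while its r with H2-Eb1 was 0.200 and then -0.013. Cd74 had r of -0.022 with H2-Aa, 0.300 with H2-Ab1, 0.148 with H2-DMa and 0.011 with H2-DMb1. Among the genes most like Cd74 in these deviations were Mrps7 (0.697), Sptlc2 (0.689), Srgn (0.674) and Ccl12 (0.671). Those most like the mean of H2-Aa, H2-Ab1 and H2-Eb1 were Tfam (0.566), Ly6a (0.563), Mepce (0.550), Tsfm (0.542) and Timm10 (0.538), and these were between 0.291 and 0.494 without mouse 1 of nest 1. All points share library depth and RNA quality, and these values are descriptions.

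H2-DMa and H2-DMb1 also varied with the summed B cell markers (r of 0.575 and 0.702 over 50 mice). With the other marker lists, r was between -0.226 and 0.219 for H2-DMa and between -0.38 and 0.246 for H2-DMb1. The B cell sum was nearly all Ighm and Cd79b. Mouse 2 of nest 11 (P200-ELS-LPS), the highest for H2-DMa and H2-DMb1, also had the highest sum of its group at 694 CPM (median 320). The part of this in the level of H2-M was not tested.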

How the data were processed

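Per the labels, RNA was prepared with a low-input kit, 1 library per mouse. The authors trimmed reads with cutadapt 2.10, mapped them to GRCm39 and counted them per gene with HTSeq 0.11.0, and the deposited values are raw counts. The annotation release and strand setting are not given in the sources used here. Total counts were 5152838 to 42231258 per mouse. Groups follow the labels.

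Counts were normalised by TMM and fitted with 6 group means over all 50 mice in edgeR 4.0.16 (R 4.3.3). Contrasts were tested with the quasi-likelihood test and Benjamini-Hochberg adjustment over 16696 genes, those that reached 1 CPM in 3 or more mice. Ciita was compared by two-sided permutation tests of mean CPM (exact, or 100000 resamples where both groups held at least 10 mice). The fit was tested on simulated data. Alternatives used limma 3.58.1, DESeq2 1.42.0, other filters, a nest block and leaving out single mice. Positions and sequences came from GENCODE on GRCm39, in which 52610 of 53700 identifiers were found. The genes named were the 7 members, the pathway and marker lists, and the 5 genes most correlated with Cd74 and with the mean of the classical chains. A few of these genes are not reported here. Members and lists were chosen with earlier results of these data known. Cell numbers per mouse are unknown. P-values measure the spread between mice, each of which shares its nest number with another mouse of its age. The 12 P9-CTR mice came from 5 nests and the 13 P9-ELS mice from 4. Mice of a nest were treated as independent in the main fit and in the permutation tests.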

Additional observations from a re-analysis of the deposited data

Results flagged for a closer look

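Of 28 sets of 1 gene in 1 P200 group, 8 had a mouse far from the others by Dixon's criterion. For independent, normally distributed values chance alone meets it in about 1 in 20 sets. The CPM were not transformed and several of the sets share a mouse, so the 8 sets cannot be set against that rate. In P200-CTR-PBS, mouse 1 of nest 1 was the high value for H2-Aa (25.8 CPM), H2-Ab1 (60.3 CPM), H2-Eb1 (14.7 CPM) and Cd74 (96.4 CPM). This mouse also had 12854 detected genes, the fewest at P200. Its H2-DMa, at 259 CPM, was the lowest of its group. Its summed dendritic cell markers were 36.4 CPM (group 19.0 to 36.4). Those of border-associated macrophages, mostly Stab1 in this group, were 159 CPM (156 to 203). The part of these in its class II level was not tested. In P200-ELS-LPS, mouse 2 of nest 11 was the high value for H2-DMa (599 CPM) and H2-DMb1 (433 CPM). Ciita was far above the group in P200-ELS-PBS mouse 1 of nest 11 (2.95 CPM) and in P200-ELS-LPS mouse 1 of nest 20 (2.17 CPM).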

How the results depend on the processing

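The number of genes called was within 1.5 times its main value under all alternatives in 8 of the 9 comparisons. For LPS in ELS mice it was 1 in the main fit and 2 in the fit of only the groups compared (H2-Aa added), in the fit without the mice with few detected genes, in the DESeq2 Wald test and in limma voom with the nest as random effect (H2-DMa added in each). H2-Aa was then at 2.49 (adjusted p = 0.0233), and H2-DMa at 0.398, 0.418 and 0.356 (adjusted p = 0.0381, 0.0434 and 0.0452). The call of H2-Ab1 for age in CTR mice was lost in the fit of only the groups compared (adjusted p = 0.0658) and without mouse 1 of nest 1. With the transcript length chosen after seeing the data, the ranks by level per kb became 1 for H2-DMa, 2 for H2-DMb1, 5 for H2-Aa and 6 for H2-Eb1. The Ciita test without mouse 1 of nest 11 was also added after seeing the data. With the replicate block of the nest, Cd74 was called for LPS in CTR (1.67, adjusted p = 0.000625) and ELS mice (2.85, adjusted p = 2.33e-06), and 1, 1 and 0 genes were called for LPS in CTR, in ELS and for their difference, as without it. The difference between both LPS effects on Cd74 was then 1.18 (adjusted p = 0.778). At P200, the PBS and LPS means of a nest did not deviate together (r between -0.041 and 0.084 over 10 nests). Mice of 1 nest within 1 group and the P9 nests were not compared, so this does not show that nest mates are independent. Nests hold 1 condition each among P200 mice, and the meaning of the nest number is not defined in the labels. Genes with few counts, H2-Aa, H2-Eb1 and Ciita, have wide errors.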
